A study of Mus musculus with 11 samples.

Results

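The immunity-related GTPase genes Irgm1, Irgm2, Igtp, Tgtp1, Tgtp2 and Ifi47 were followed across epithelial cells of the mouse small intestine. They were taken by their symbols from a table of 11366 genes, which held all 6. They were chosen by their RPKM values in the SFB, NFF and Control libraries, so their differences between groups are given as a description, with no test. RPKM is a read count divided by the length of the gene and by the size of the library.

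The 11 libraries came from wild-type mice. In the SFB group (n = 4) mice on standard chow had been colonized with SFB, read here as segmented filamentous bacteria, which live attached to the epithelium of the ileum. The NFF group (n = 4) was fed a diet low in fermentable fiber, and the Control group (n = 3) standard chow, both with no other treatment. All cells had been sorted alive for EpCAM, a surface protein of epithelium. Cells with CD45 (leukocytes), CD31 (endothelium) or CD44 (crypt cells above all) had been gated out. The labels give no age, nor whether each library was a separate animal. The spread and p-values given here therefore cover these libraries only and may be technical.

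Immunity-related GTPases, or IRG proteins, are made by mouse cells after interferon gamma binds its receptor, whose signal induces the transcription factor IRF1 among others. The effector members load onto the membrane of vacuoles that enclose intracellular pathogens and help to break them. The regulatory members sit on the cell's own membranes and keep the effectors inactive there. The regulators carry methionine where the effectors carry lysine in the first nucleotide-binding motif, and the subclasses are called GMS and GKS after it.

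The coding stretch of that motif is shown because it assigns each of the 6 genes to a subclass. The capitals mark the seventh of its codons, ATG in the regulators Irgm1, Irgm2 and Igtp (also called Irgm3) and AAG in Tgtp1 and Tgtp2 (also called Irgb6) and Ifi47 (also called Irgd). The sequences are from GENCODE M21 transcripts on GRCm38, all on chromosome 11, read 5′ to 3′ along the gene.
Irgm1, chr11:48866761-48866784, minus strand: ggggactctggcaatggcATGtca
Irgm2, chr11:58219695-58219718, plus strand: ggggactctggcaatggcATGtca
Igtp, chr11:58206275-58206298, plus strand: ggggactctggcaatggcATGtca
Tgtp1, chr11:48987667-48987690, minus strand: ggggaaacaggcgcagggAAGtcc
Tgtp2, chr11:49059534-49059557, minus strand: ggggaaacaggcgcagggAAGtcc
Ifi47, chr11:49095648-49095671, plus strand: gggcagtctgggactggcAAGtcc

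The 3 regulators had the same letters over these 24 bases, and so had the Tgtp pair. Over whole coding sequences Tgtp1 and Tgtp2 differed at 4 of 1245 bases (99.68% identity). Other pairs were 52.9% to 71.5% identical, and the closest of them was Irgm2 with Igtp. In windows of 50 bases, 89.4% of the Tgtp1 transcript was also found in Tgtp2, and 80.0% in windows of 100 bases, so how their reads were divided cannot be told from RPKM. Igtp shared 12.3% of its windows of 50 bases with Irgm2. Irgm1 shared 0.814% with any other gene, and Ifi47 shared 3.71%, with Olfr56. In GENCODE M21 the spans of Igtp (58199556 to 58207591) and Irgm2 (58199618 to 58222782) overlapped by 7974 bases, with 162 exonic bases in common. In RefSeq they did not overlap and lay 7384 bases apart. The table carries Entrez identifiers, but the annotation used for counting is not given in the sources used here.

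Of the 6 genes, 5 carried GAAA, any 2 bases and GAAA again, the core of an interferon-stimulated response element, in the RefSeq promoter window of 250 bases before to 50 after the start. Both strands were searched. Of all 32851 RefSeq promoter windows of GRCm38.p6, 3.44% held it. The motif TTCNNNGAA, the core of a gamma-activated site, reads the same on both strands. It was found in 4 of the 6 windows and in 8.3% of all windows. The 6 windows of the guanylate-binding protein (GBP) genes, from 5 genes, held the response element core in 5 cases and TTCNNNGAA in 2. The 6 windows of other IRG genes held the response element core in 3 cases and TTCNNNGAA in 2. The 120 bases before each RefSeq start are printed to show where the motif lies, with each match of the response element core in capitals.
Irgm1, chr11:48871421-48871540, minus strand: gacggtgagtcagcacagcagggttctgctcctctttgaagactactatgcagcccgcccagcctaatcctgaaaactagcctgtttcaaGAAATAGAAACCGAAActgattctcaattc
Irgm2, chr11:58214857-58214976, plus strand: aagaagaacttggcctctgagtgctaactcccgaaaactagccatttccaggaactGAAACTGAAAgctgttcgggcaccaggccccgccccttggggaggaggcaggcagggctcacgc
Igtp, chr11:58199436-58199555, plus strand: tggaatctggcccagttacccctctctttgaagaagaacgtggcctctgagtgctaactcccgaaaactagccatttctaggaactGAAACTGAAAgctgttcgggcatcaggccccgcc
Tgtp1, chr11:48992247-48992366, minus strand: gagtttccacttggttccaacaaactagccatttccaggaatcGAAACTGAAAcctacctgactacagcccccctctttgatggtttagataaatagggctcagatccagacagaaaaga
Tgtp2, chr11:49064213-49064332, minus strand: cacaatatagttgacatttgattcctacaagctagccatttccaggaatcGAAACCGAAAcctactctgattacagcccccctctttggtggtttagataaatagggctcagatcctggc
Ifi47, chr11:49076467-49076586, plus strand: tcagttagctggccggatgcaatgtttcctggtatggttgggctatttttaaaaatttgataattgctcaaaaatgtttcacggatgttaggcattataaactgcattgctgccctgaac

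The response element core began 24 to 77 bases before the start in the 5 genes, and Irgm1 had a pair of overlapping matches, at 30 and 24 bases. The TTCNNNGAA match of Igtp, Irgm2, Tgtp1 and Tgtp2 lay 11 bases upstream of the other motif's first base and did not overlap it. Ifi47 held neither motif within its window, which says only that these letters are not in that window. The matches describe letters in the reference genome, and binding was not measured.

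Transcripts of the regulators were highest in SFB libraries and lowest in NFF libraries. Irgm1, which controls the effectors and is needed for autophagy in infected mouse cells, stood at 22.7, 28.0, 24.1 and 23.0 RPKM in SFB libraries 1 to 4. It stood at 7.10, 6.22, 7.17 and 7.25 RPKM in NFF libraries 1 to 4, and at 9.05, 12.5 and 8.30 RPKM in Control libraries 2, 4 and 5. No SFB library overlapped another group, and the highest NFF library lay just under the lowest Control library.

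Irgm2 stood at 7.70, 12.8, 8.46 and 7.98 RPKM in SFB libraries, at 1.06, 0.590, 1.39 and 0.570 RPKM in NFF libraries, and at 3.51, 2.52 and 1.91 RPKM in Control libraries. Igtp stood at 29.1, 39.4, 31.0 and 16.1 RPKM in SFB libraries, at 2.51, 1.28, 2.00 and 2.41 RPKM in NFF libraries, and at 13.7, 4.66 and 4.31 RPKM in Control libraries. The groups did not overlap for either gene, but for Igtp SFB 4 and Control 2 came close to each other. Control 2 lay just under SFB 4, while the other Control libraries lay nearer to the NFF than to the SFB libraries.

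Of the effectors, Ifi47 stood at 9.20, 11.9, 8.54 and 6.78 RPKM in SFB libraries, at 2.44, 1.47, 2.19 and 1.52 RPKM in NFF libraries, and at 3.44, 4.15 and 3.36 RPKM in Control libraries. Tgtp1 stood at 3.19, 4.87, 5.49 and 4.90 RPKM in SFB libraries, at 0.228, 0.309, 0.245 and 0.352 RPKM in NFF libraries, and at 1.23, 0.887 and 0.524 RPKM in Control libraries. Its near copy Tgtp2 stood at 3.80, 6.02, 5.36 and 5.36 RPKM in SFB libraries, at 0.355, 0.162, 0.362 and 0.304 RPKM in NFF libraries, and at 1.48, 0.722 and 0.607 RPKM in Control libraries. The groups were again separate for each gene. Summed over the pair, Tgtp stood at 6.99 to 10.9 RPKM in SFB libraries, 0.471 to 0.656 in NFF libraries and 1.13 to 2.71 in Control libraries. The sum is free of how reads were divided only if each shared read was counted once, which is not known.

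**Figure D1:**
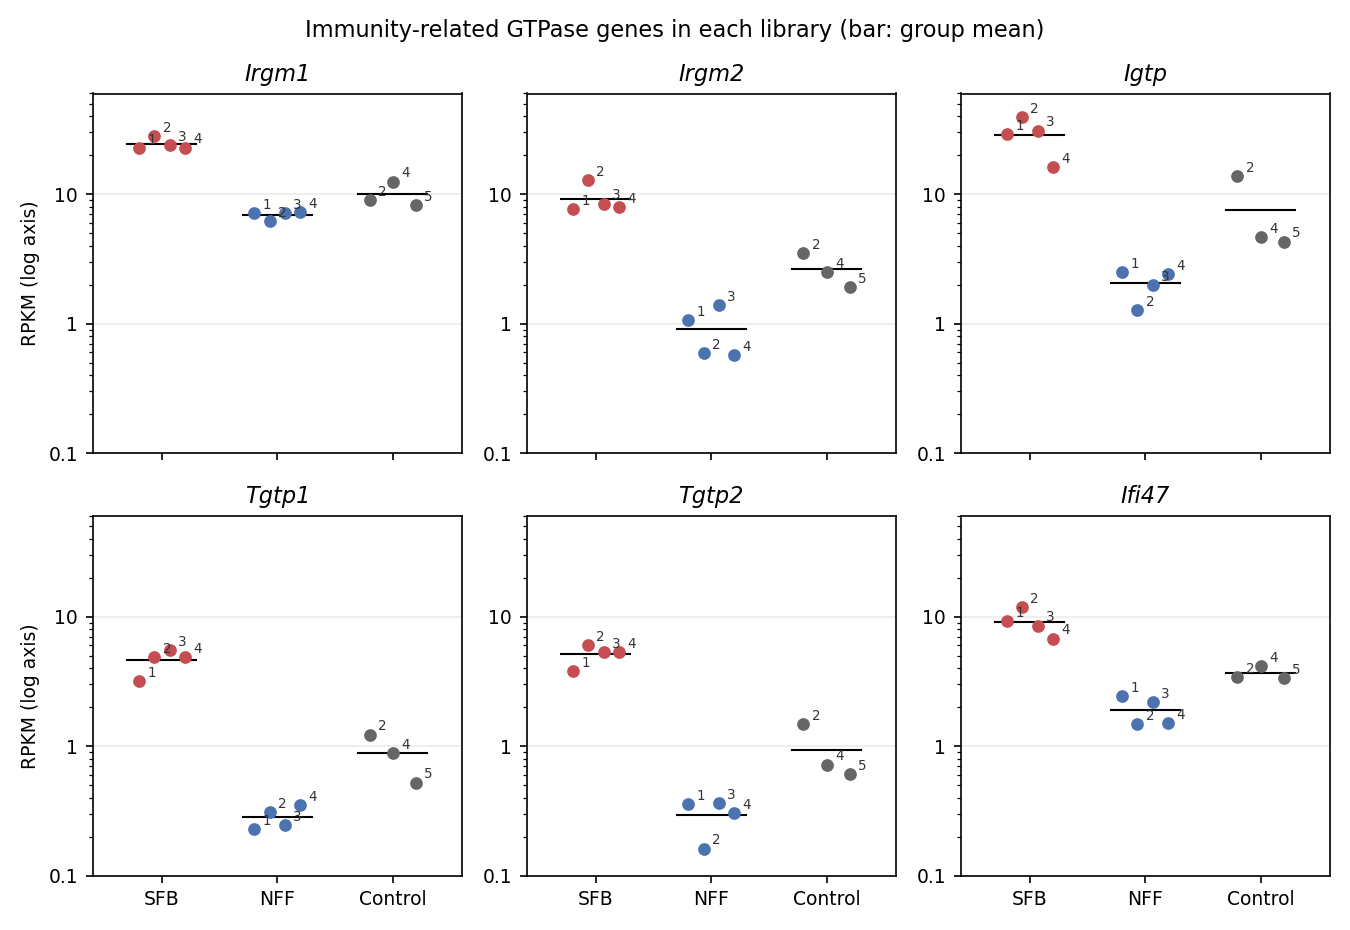
RPKM of the 6 GTPase genes on a log axis, 1 panel a gene, with 1 point for each library of the SFB, NFF and Control groups (replicate number beside it) and a bar at the group mean. In every panel the SFB points lie above the Control points and the Control points above the NFF points, and the gap between Control 2 and SFB 4 is narrowest for Igtp.

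Every SFB library therefore lay above every Control library, and every Control library above every NFF library, for 6 of 6 genes. Over all 10482 tested genes 35 had that order, which is 0.334%. Without the middle group as a condition, 3.66% of tested genes had SFB libraries wholly above Control libraries, 4.42% had NFF libraries wholly below Control libraries, and 10.1% had SFB libraries wholly above NFF libraries. Because the genes were proposed for these values, nothing is read from the comparison of 6 of 6 with those shares.

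The size of the difference varied among the 6 genes. The ratio of mean RPKM in SFB to mean RPKM in Control ran between 2.45 for Irgm1 and 5.49 for Tgtp2, with 2.50 for Ifi47, 3.49 for Irgm2, 3.82 for Igtp and 5.24 for Tgtp1. The ratio of NFF to Control was 0.697 for Irgm1, 0.522 for Ifi47, 0.342 for Irgm2, 0.322 for Tgtp1, 0.316 for Tgtp2 and 0.271 for Igtp. By these ratios Irgm1, the most abundant of the 6 in NFF libraries, had the smallest proportional difference in both comparisons. In SFB against Control its ratio of 2.45 was close to the 2.50 of Ifi47. The fit below, on a log2(RPKM + 1) scale, gave Ifi47 the smaller SFB minus Control difference (1.10, against 1.23 for Irgm1). The ratio of SFB to NFF ran from 3.52 for Irgm1 to 17.4 for Tgtp2, and was 14.1 for Igtp. Bulk RNA cannot tell fewer cells with a transcript from less of it per cell.

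Fitted differences were taken on the log2(RPKM + 1) scale, which understates changes of genes near 1 RPKM such as the Tgtp pair. For SFB minus Control they were 1.23 ± 0.14 for Irgm1, 1.49 ± 0.22 for Irgm2, 1.91 ± 0.36 for Igtp, 1.58 ± 0.17 for Tgtp1, 1.68 ± 0.18 for Tgtp2 and 1.10 ± 0.18 for Ifi47 (SE, n = 4 and 3). The median of the 6 was 1.53, against 0.01 over all tested genes. For NFF minus Control the differences were -0.45 ± 0.14, -0.94 ± 0.22, -1.34 ± 0.36, -0.53 ± 0.17, -0.55 ± 0.18 and -0.69 ± 0.18 in the same order of genes (SE, n = 4 and 3). Their median was -0.62, against -0.01 over all tested genes. SFB minus NFF, where both diet and colonization differ, gave a median of 2.17, against 0.02 over all tested genes, with the largest value for Igtp (3.25 ± 0.33) and the smallest for Irgm1 (1.68 ± 0.13). The 3 comparisons share libraries and are not independent of each other. Each SE describes the spread of these libraries and is no test, since the values chose the genes.

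**Figure D2:**
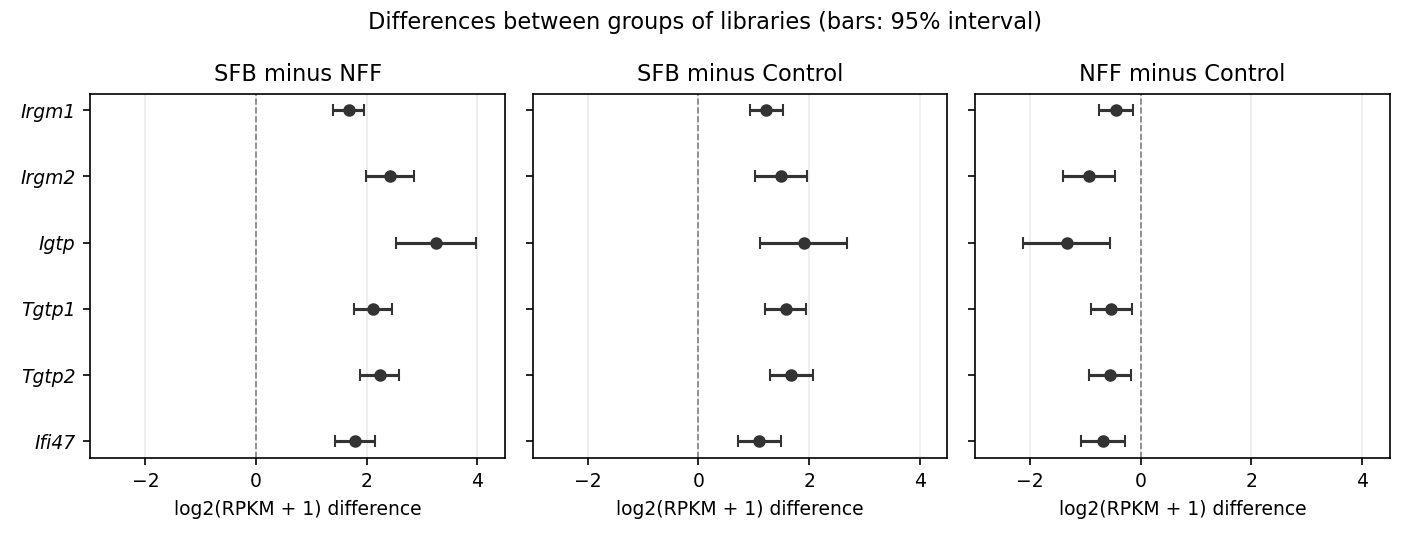
Differences on the log2(RPKM + 1) scale for the 6 GTPase genes in SFB minus NFF, SFB minus Control and NFF minus Control, with 95% intervals from the fit of all libraries and a dashed line at 0. All points lie above 0 for SFB and below 0 for NFF minus Control, and the intervals are widest for Igtp. Because these values chose the genes, the intervals describe the spread of the libraries and are no test against 0.

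All 6 genes passed the filter of 1 RPKM in 3 libraries. Tgtp1 and Tgtp2 passed through SFB libraries, with 1 Control and 0 NFF libraries reaching 1 RPKM, and so had to be high in SFB to be kept. No calls are given for the 6 genes, since their own values chose them. Over all tested genes, limma with Benjamini-Hochberg adjustment called 0.124% higher and 0.0763% lower in SFB against Control (0.2% in all). It called 3.14% higher and 4.2% lower in SFB against NFF (7.34% in all), and 0% in NFF against Control. At an unadjusted p under 0.05, 12.1% of tested genes passed in SFB against Control and 4.82% in NFF against Control, where 1.95% were lower in NFF.

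The shares of Irgm1 and Igtp in the family were separate between SFB and NFF libraries. Control libraries overlapped SFB libraries in both shares, and NFF libraries in that of Igtp. Irgm1 made 27.2% to 35.8% of the summed RPKM of the 6 genes in SFB libraries, 51.8% to 62.0% in NFF libraries and 27.9% to 49.2% in Control libraries. Igtp made 25.1% to 38.4% in SFB libraries, 12.7% to 19.5% in NFF libraries and 18.3% to 42.3% in Control libraries. Igtp was the most abundant gene in SFB 1, SFB 2, SFB 3 and Control 2, and Irgm1 in the other 7 libraries. Irgm1 was most abundant in all 4 NFF libraries.

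The 3 regulators together kept a narrow share, at 73.4% to 78.6% of the sum in SFB libraries, 77.9% to 82.5% in NFF libraries and 76.4% to 81.1% in Control libraries. Per Irgm1, the summed Tgtp pair stood at 0.399 ± 0.067 in SFB, 0.083 ± 0.0061 in NFF and 0.188 ± 0.096 in Control (mean ± SD of 4, 4 and 3 libraries). These values and the shares rest on how reads common to the pair were counted, which is not known. Ifi47 per Irgm1 stood at 0.370 ± 0.058 in SFB, 0.274 ± 0.062 in NFF and 0.372 ± 0.037 in Control (SD, n = 4, 4 and 3), so its SFB and Control ranges overlapped.

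Libraries of the same group also differed. SFB 2 had the highest value of its group for 5 of the 6 genes and SFB 3 for Tgtp1, whereas SFB 4 was lowest for Igtp and Ifi47 and SFB 1 for Irgm1, Irgm2, Tgtp1 and Tgtp2. Among Control libraries, Control 2 was highest for 4 genes, Irgm2, Igtp, Tgtp1 and Tgtp2, and Control 4 for Irgm1 and Ifi47. Control 2, SFB 2 and SFB 4 were also the libraries farthest from their group means over all tested genes, at 0.35, 0.38 and 0.43 log2 units (root mean square). Without Control 2 the SFB minus Control difference of Igtp was 2.38 and the NFF minus Control difference -0.87. Without those 3 libraries the SFB minus Control median was 1.31, over the 4 of the 6 genes that still passed the filter.

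Other members of the IRG family did not share a single pattern. Of 12 listed relatives 5 were in the table and 4 were tested. Iigp1 (also called Irga6), a GKS effector, rose in SFB, at 1.47, 1.69, 2.34 and 1.28 RPKM in SFB libraries, 0.249, 0.204, 0.163 and 0.091 in NFF libraries and 0.306, 0.172 and 0.254 in Control libraries. Its SFB minus Control difference was 1.10 ± 0.14 (limma adjusted p = 0.010), a call lost without Control 5 (adjusted p = 0.057). Iigp1 reached 1 RPKM in SFB libraries alone and so passed the filter by being high there. With no filter on low values the difference was also called (adjusted p = 0.0069). Its NFF and Control libraries overlapped. Gm5431, which lies 16002 bases from Irgm1, differed by 1.37 ± 0.32 in SFB against Control (limma adjusted p = 0.106) and rose by 1.71 in SFB against NFF (adjusted p = 0.0071). Without SFB 4 it was called in SFB against Control too (1.66, adjusted p = 0.014), but not with any other single library left out (adjusted p up to 0.306). Irgq stood at 5.10 RPKM in SFB, 5.63 in NFF and 5.69 in Control, and Gm4070 at 2.08, 1.40 and 1.90 RPKM in the same order of groups, with all groups overlapping. Gm12185 was not tested, at 0.351 to 0.713 RPKM in SFB libraries, 0.061 to 0.131 in NFF libraries and 0.056 to 0.152 in Control libraries.

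The guanylate-binding proteins are larger interferon-inducible GTPases that also target pathogen vacuoles. Of 7 tested GBP genes none was called in SFB against Control with limma, where 6 had an unadjusted p under 0.05, and 4 rose in SFB against NFF. The median SFB minus Control difference of the 7 was 0.99. Over all tested genes 0.2% were called in SFB against Control, 12.1% had such a p there, and 3.14% rose in SFB against NFF. Gbp2 stood at 9.98, 11.8, 9.71 and 3.45 RPKM in SFB libraries, 1.23, 0.675, 1.17 and 1.79 in NFF libraries and 3.95, 2.30 and 2.59 in Control libraries. Gbp6 stood at 3.36, 4.03, 3.77 and 1.06 RPKM in SFB libraries, 0.315 to 0.538 in NFF libraries and 0.437 to 0.682 in Control libraries. SFB 4 stood apart from the other SFB libraries for these genes. Without SFB 4, Gbp2 (1.56, limma adjusted p = 0.0061), Gbp6 (1.60, adjusted p = 7.5e-04), Gbp7 (1.40, adjusted p = 0.021), Gbp8 (1.25, adjusted p = 0.014) and Gbp10 (1.28, adjusted p = 0.0018) were called in SFB against Control. With it they were not (adjusted p = 0.148, 0.068, 0.201, 0.275 and 0.142). None was called with any other single library left out (limma adjusted p up to 0.347, 0.189, 0.436, 0.581 and 0.323). Gbp10 passed the filter in 8 of 11 such fits. Gbp4, Gbp6 and Gbp10 reached 1 RPKM in SFB libraries alone and passed the filter by being high there. With no filter and all libraries kept, Gbp6 and Gbp10 were called in SFB against NFF (limma adjusted p = 0.0054 and 0.012). They were not called in SFB against Control (0.068 and 0.139). The calls in SFB against NFF were those of Gbp2 (2.05, limma adjusted p = 0.0029), Gbp6 (1.46), Gbp7 (1.57) and Gbp10 (1.22). Gbp3 stood at 1.17 RPKM in SFB, 0.650 in NFF and 0.930 in Control. SFB and Control libraries were separate for 2 of the 7 genes, Gbp6 and Gbp10, and overlapped for the others. Over all tested genes 3.66% had SFB libraries wholly above Control libraries.

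**Figure D3:**
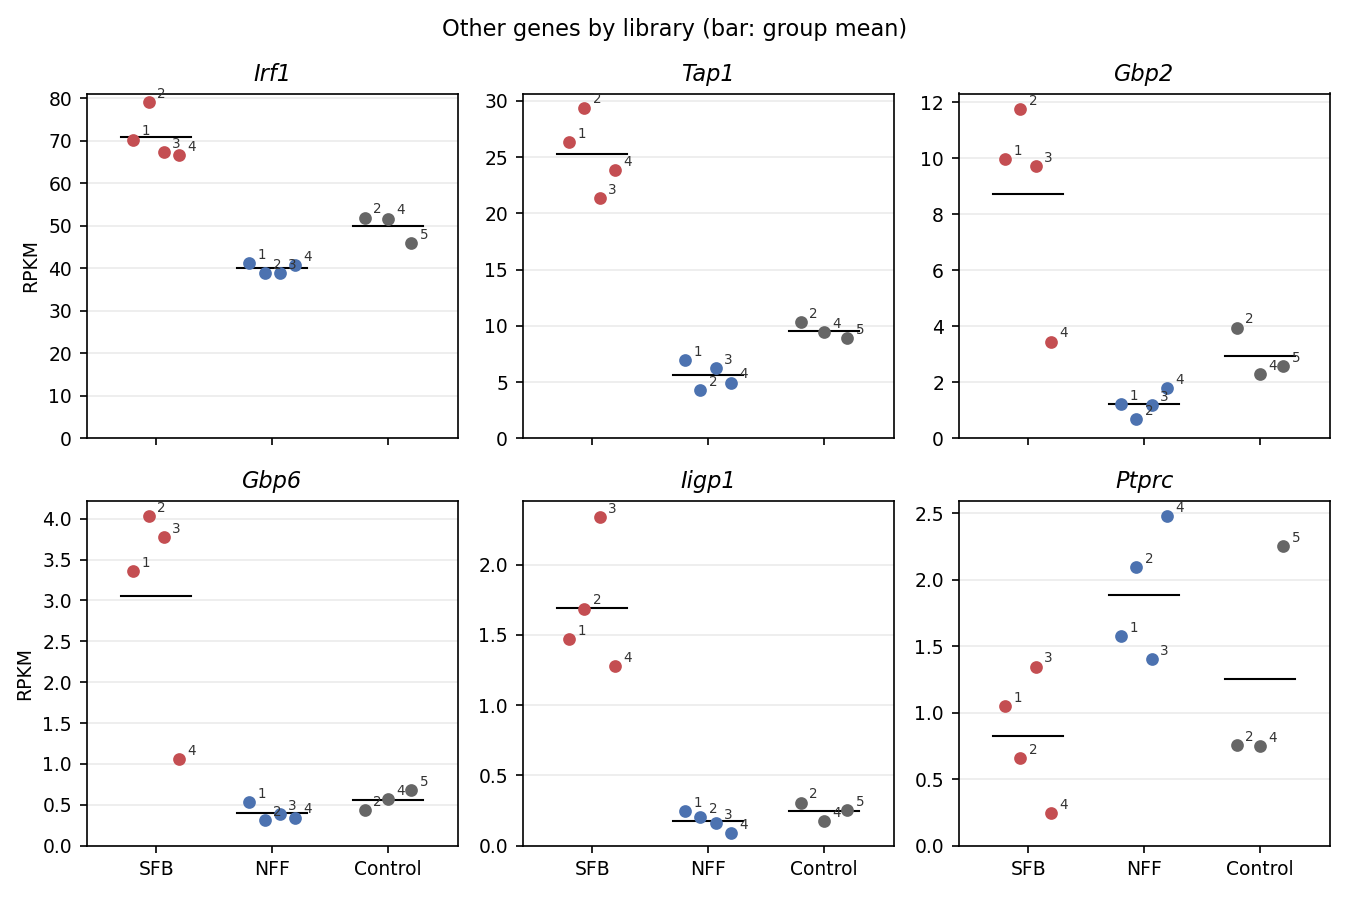
RPKM in each library of the SFB, NFF and Control groups (replicate number beside each point, bar at the group mean) for Irf1, Tap1, Gbp2, Gbp6, Iigp1 and Ptprc. SFB 4 lies well under the other SFB libraries for Gbp2 and Gbp6, whereas for Irf1, Tap1 and Iigp1 all SFB libraries lie above the Control libraries. For Ptprc, the gene of the leukocyte protein CD45, the SFB libraries lie below the NFF libraries and overlap the Control libraries.

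Among genes that carry the interferon gamma signal, a transactivator gene rose in SFB against Control, while the receptor chains and kinases were not called. Of 15 tested genes between receptor and transcription factors, 1 rose in SFB against Control and 14 were not called, and in SFB against NFF 5 rose and 10 were not called. Over all tested genes 0.124% rose in SFB against Control and 3.14% in SFB against NFF. Nlrc5, the class I transactivator, stood at 3.65, 3.30, 4.5 and 1.75 RPKM in SFB libraries, 0.447, 0.384, 0.480 and 0.449 in NFF libraries and 1.16, 0.616 and 0.727 in Control libraries. Its groups did not overlap, and SFB 4 was the lowest SFB library. Its SFB minus Control difference was 1.20 ± 0.21 (limma adjusted p = 0.047), which passed with all libraries or without SFB 4, and missed 0.05 when any other single library was left out (adjusted p up to 0.170, without Control 5).

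Irf1 stood at 70.3, 79.1, 67.3 and 66.6 RPKM in SFB libraries, 41.3, 38.9, 38.9 and 40.8 in NFF libraries and 52.0, 51.7 and 45.9 in Control libraries. Its 3 groups were separate, but its SFB minus Control difference of 0.50 ± 0.11 was not called (limma adjusted p = 0.085), and that of SFB minus NFF was (0.81, adjusted p = 0.0017). Irf8 (0.70, adjusted p = 0.082), Socs1, a feedback inhibitor of the receptor's kinases (0.88, adjusted p = 0.068), and Ciita, the class II transactivator (1.21, adjusted p = 0.057), were not called in SFB against Control and rose in SFB against NFF. Socs1 and Ciita were called in SFB against Control without SFB 4 (adjusted p = 0.022 and 0.031), and Ciita also without NFF 3 (0.046). With any other single library left out neither was called (limma adjusted p up to 0.243 and 0.185).

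The receptor chains were expressed in all groups. Ifngr1 stood at 62.8 RPKM in SFB, 82.5 in NFF and 70.9 in Control, and Ifngr2 at 42.0, 54.1 and 49.3 RPKM. Their SFB minus NFF differences were -0.40 and -0.38, not called (limma adjusted p = 0.169 and 0.102). The highest SFB library for Ifngr1 was 70.7 RPKM and the lowest NFF library 75.4 RPKM. The kinase genes Jak1, at 18.1 RPKM in SFB, 17.4 in NFF and 17.4 in Control, and Jak2, at 22.9, 24.8 and 24.9 RPKM, had overlapping groups. The same held for Irf2 and Ptpn2, a phosphatase of the pathway. Stat2, Stat3, Irf9 and Socs3 were not called in any comparison. The SFB minus Control difference was 0.59 for Stat2 and 0.45 for Stat3. The SFB minus NFF difference was 0.59 for Stat2, 0.30 for Stat3, 0.37 for Irf9 and 0.94 for Socs3, each at an unadjusted limma p under 0.05. Irf9 stood at 6.25 RPKM in SFB, 4.61 in NFF and 5.44 in Control, and Socs3 at 29.0, 14.5 and 19.5 RPKM. Ifng itself was not analysed here.

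Genes best known for induction by type I and type III interferons had 0 of 27 tested members called in SFB against Control with limma, and 6 at an unadjusted p under 0.05. Over all tested genes the shares were 0.2% and 12.1%. The median of the 27 was 0.32, with 6 genes that rose and 1 that fell in SFB against NFF (3.14% and 4.2% over all tested genes). Ifi44 (1.20, adjusted p = 0.051) and Ifi27 (-1.06, adjusted p = 0.161) had the lowest unadjusted p in SFB against Control. Of 15 genes of autophagy and of the ATG8 family, the ubiquitin-like proteins through which IRG and GBP proteins find vacuoles, 0 were called in any comparison with limma. In SFB against Control 2 of them, Ulk1 (-0.41) and Map1lc3b (-0.37), had an unadjusted p under 0.05, as had 12.1% of all tested genes. The median SFB minus Control difference of the 15 was -0.19. All 13 tested genes of class I peptide loading and the immunoproteasome had SFB minus Control differences above 0 (median 0.38), and 7 an unadjusted p under 0.05. In SFB against NFF 7 rose with limma and 6 were not called. Over all tested genes 12.1% had such a p in SFB against Control, and 3.14% rose in SFB against NFF. In SFB against Control 1 of the 13 rose, the peptide transporter gene Tap1. It stood at 26.3, 29.4, 21.3 and 23.9 RPKM in SFB libraries, 6.93, 4.29, 6.22 and 4.95 in NFF libraries and 10.4, 9.41 and 8.88 in Control libraries (difference 1.31 ± 0.16, limma adjusted p = 0.0058), a call lost under a replicate block (adjusted p = 0.229) and with only the 2 groups fitted (0.062). The calls of Iigp1 and Nlrc5 were lost in both of those fits too (adjusted p of 0.085 to 0.379). NFF against Control had no called gene in any of these lists, as it had none over all genes.

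**Figure D4:**
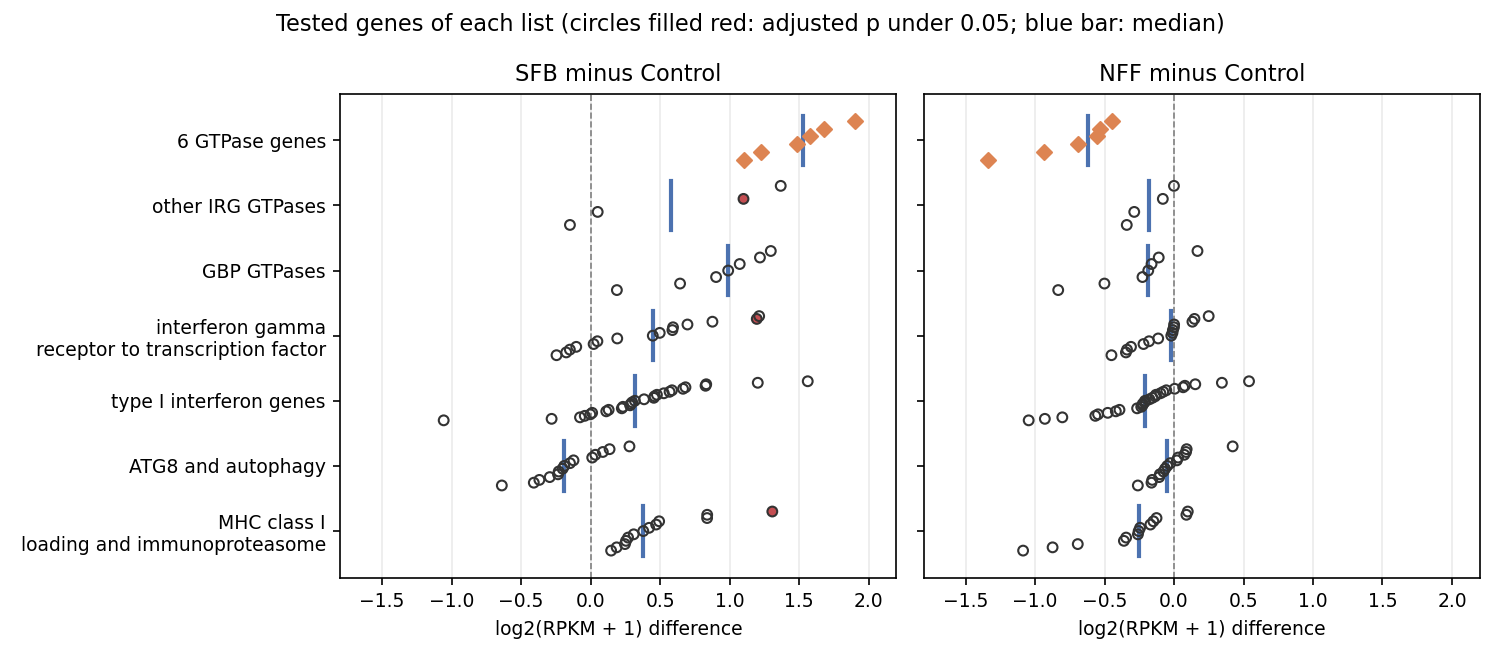
Differences on the log2(RPKM + 1) scale for SFB minus Control and NFF minus Control, with 1 circle for each tested gene of a list, filled red where the limma adjusted p was under 0.05, orange diamonds for the 6 GTPase genes, which carry no test, and a blue bar at the list's median. The GTPase median of 1.53 for SFB minus Control lies right of the GBP median of 0.99, and the autophagy genes lie around -0.19.

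The lists differ in how their members were chosen, so no difference between lists was tested. Of the 29 other genes whose libraries had the order SFB above Control above NFF with no overlap, Gbp10, Irf1, Nlrc5, Tap1, Psmb8 and Psmb9 belonged to these lists. Psmb8 and Psmb9 encode immunoproteasome subunits. They were 1 of 7 tested GBP genes, 2 of 15 signalling genes and 3 of 13 class I genes. None of the 27 tested type I interferon genes and 15 autophagy genes was among them. Over all tested genes 0.334% had that order, so nothing is read from the absence of genes of those lists.

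Among the genes most like the 6 GTPase genes across the 11 libraries were Irf1, with a Pearson r of 0.989 to their mean log2 level, Tap1 (0.986), Nudt5 (0.968), H2-Q9 (0.963), Plaat3 (0.962), Ppt1 (0.958) and Slfn5 (0.952). The libraries fall into 3 groups that share diet and colonization, so these values describe group levels above all. With each group's mean subtracted, none of these 7 stayed among the 8 most alike, which were Mro, Cycs, Ift22, Il33, Mad2l2, Oit1, P4hb and Bco2 (r of 0.922 to 0.870). Among the GTPase genes themselves, r over the libraries was 0.926 to 0.992. With group means subtracted it was 0.808 for Tgtp1 with Tgtp2 and 0.745 for Irgm2 with Tgtp2, and -0.138 for Tgtp1 with Ifi47. All are correlations over 11 points and carry no test.

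Genes next to the GTPase genes on chromosome 11 were counted in the same way. The 6 genes lie at a pair of loci, Irgm1 to Ifi47 and Igtp with Irgm2. Of 20 tested genes within 500 kb of them in RefSeq, 7 at the first locus and 13 at the second, limma called 0 in SFB against Control and 0 in NFF against Control, with 3 and 1 at an unadjusted p under 0.05. Over all tested genes 0.2% and 0% were called, and 12.1% and 4.82% had such a p, so nothing is read from these counts. The median SFB minus Control difference of the neighbours was -0.01, and 17 of 20 lay within 0.5 of 0. Mrpl22, a mitochondrial ribosomal protein gene 19976 bases from Igtp, stood at 23.5 RPKM in SFB, 20.7 in NFF and 23.4 in Control. Trim7, 14053 bases from Irgm1, stood at 1.13, 1.46 and 1.14 RPKM in the same order of groups. In SFB against NFF 2 of the 20 were called, the IRG relative Gm5431, which rose, and 2010001A14Rik, which fell (-0.65, limma adjusted p = 0.036). Over all tested genes 7.34% were called in that comparison.

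**Figure D5:**
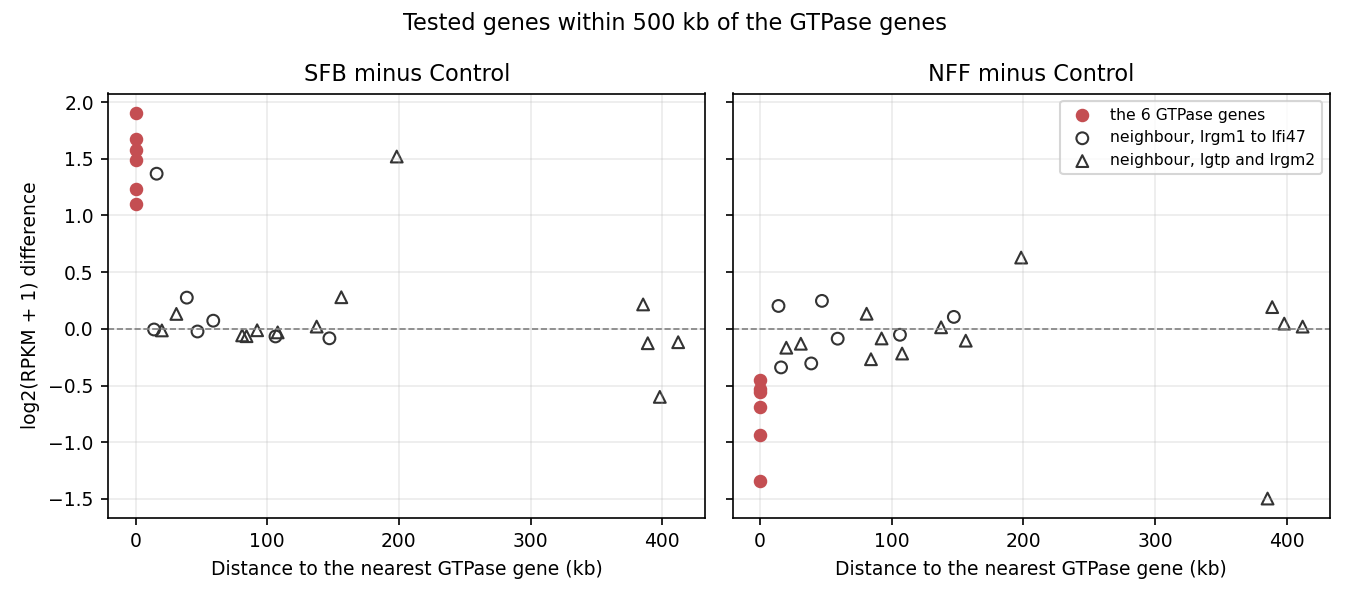
Difference on the log2(RPKM + 1) scale against distance to the nearest GTPase gene, for SFB minus Control and NFF minus Control, with the 6 GTPase genes in red at 0 kb, circles for neighbours of the Irgm1 to Ifi47 locus and triangles for neighbours of Igtp and Irgm2. Most neighbours lie near 0 at every distance, the circle at 1.37 for SFB minus Control is Gm5431, and the triangle at 1.52 is a gene that was not called.

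Markers of the sorted cells and of cells sorted against were read beside these values, since T cells and myeloid cells can express IRG genes. Epcam stood at 494 to 670 RPKM in SFB libraries, 586 to 648 in NFF libraries and 489 to 615 in Control libraries. The summed level of 9 of 9 epithelial markers was 5622 to 9600 RPKM in SFB libraries, 8399 to 9432 in NFF libraries and 7106 to 8520 in Control libraries. Of the 9, Krt18 was lower in SFB libraries (316 to 427 RPKM) than in NFF (575 to 1157) and Control libraries (544 to 875). Alpi was lower in SFB (75.6 to 314 RPKM) than in NFF libraries (335 to 423). For the remaining markers SFB libraries overlapped both other groups. SFB 4 had the lowest Fabp2 of its group, at 711 RPKM against 2357 to 2652. Of 8 leukocyte markers 2 were in the table, Ptprc and Rac2, and their summed level was lower in SFB, at 1.16 to 8.58 RPKM, than in NFF, at 12.7 to 27.0 RPKM, and stood at 10.4 to 21.2 RPKM in Control. An exact two-sided permutation test of their mean log2 level gave p = 0.029 for SFB against NFF, the smallest its splits allow, p = 0.057, likewise the smallest, for SFB against Control and p = 0.40 for NFF against Control. Adjusted over 18 such exact tests by Benjamini-Hochberg, the lowest p was 0.171. The single myeloid marker in the table, Lyz2, likewise stood at 1.34 to 17.2 RPKM in SFB libraries, 18.7 to 29.4 in NFF libraries and 20.6 to 50.6 in Control libraries.

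Ms4a1, a B cell marker, stood at 0.377 to 2.34 RPKM in SFB libraries, 0.438 to 0.83 in NFF libraries and 0.317 to 0.677 in Control libraries. Tek, an endothelial marker, was under 1 RPKM in all libraries. Of 10 T cell and 6 fibroblast and muscle markers none was in the table, so no level of them is given. Most of the summed leukocyte level was Rac2, at 0.917 to 7.53 RPKM in SFB libraries, 11.3 to 24.5 in NFF libraries and 9.66 to 18.9 in Control libraries. Any part of leukocytes in the GTPase values was not tested. Ptprc by itself, which encodes CD45, stood at 0.247 to 1.35 RPKM in SFB libraries, 1.40 to 2.48 in NFF libraries and 0.751 to 2.25 in Control libraries, so SFB and Control overlapped for it. Markers of dividing cells summed to 36.1 to 151 RPKM in SFB libraries, 14.4 to 26.6 in NFF libraries and 24.8 to 75.2 in Control libraries. Their group means had the order of the GTPase genes, but Control libraries overlapped both other groups. The exact permutation test gave p = 0.457 for SFB against Control, 0.114 for NFF against Control and 0.029 for SFB against NFF, before adjustment. Mki67 among them stood at 5.69, 3.82, 6.99 and 16.6 RPKM in SFB libraries 1 to 4. Their part in the result was not tested.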

How the data were processed

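RNA of sorted live epithelial cells was turned into cDNA by SMART-seq v4 and into libraries by NexteraXT, per the labels' protocols. Neither kit marks strand or adds molecular identifiers. The authors deposited 1 table of RPKM values for 11366 genes, per the file headers. The submitters' processing notes name STAR and mm10. How reads were counted, and on which gene models, was not given in the sources used here. Low values held no repeated ratio that would recover whole reads (at most 12 of 380 genes between 0.03 and 0.4 RPKM shared 1 ratio in any of 55 pairs of libraries, within 0.004 in natural log), so depth was unknown and no counting interval is given. Summed RPKM was 237250 to 302660 per library.

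RPKM values were analysed as log2(RPKM + 1) in R 4.3.3 with limma 3.58.1, with 1 mean per group over all 11 libraries, 8 residual degrees of freedom, eBayes with a mean trend, and Benjamini-Hochberg adjustment. Genes with at least 1 RPKM in at least 3 libraries were tested (10482), and a gene was called under an adjusted p of 0.05. The fit was tested on simulated data. Coding sequences were aligned with Biopython 1.88. Symbols were matched to RefSeq by Entrez identifier (11360 of 11366).

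The members and lists were chosen with earlier results of these data known. Named were the 6 genes, the measured genes of the IRG, GBP and interferon gamma signalling lists, up to 4 genes of other lists, called neighbours, the genes most alike, and marker genes. Genes named beyond that, such as Trim7 and Mrpl22, were chosen after their values were seen. Differences of other genes are given where the unadjusted p was under 0.05 and otherwise mostly as levels. Alternatives were other pseudocounts, filters, scalings and eBayes settings, 2 groups fitted alone, a block on the replicate number, each library left out, and summing Tgtp1 and Tgtp2. Leaving out together the 3 libraries farthest from their group means was chosen after seeing the data. For 1 gene of the signalling list, which was left out of its counts, the values are not reported here.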

Additional observations from a re-analysis of the deposited data

Results flagged for a closer look

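In 3 of 74 groups of 4 libraries, 1 library stood far from the others of its group. Chance alone gives about 1 in 20 such groups. Irgm1 stood at 6.22 RPKM in NFF 2, against 7.10 to 7.25 in the other NFF libraries, a gap of 0.864 of the group's range on the log2(RPKM + 1) scale. Gbp2 stood at 3.45 RPKM in SFB 4, against 9.71 to 11.8 in the other SFB libraries (gap 0.834). Gbp6 stood at 1.06 RPKM in SFB 4, against 3.36 to 4.03 in the other SFB libraries (gap 0.840).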

How the results depend on the processing

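All 385 values of the 6 GTPase genes under the alternatives kept the sign of the reported value. The groups did not overlap for these genes, so most alternatives, such as leaving a library out, could not reverse a sign. Nothing is read from this count. The SFB minus Control median of 1.53 was 1.92 with a pseudocount of 0.1, 1.77 with 0.5 and 1.31 without the 3 farthest libraries (over 4 genes), and 1.38 to 1.68 with 1 library left out. The NFF minus Control median of -0.62 was -1.31 with a pseudocount of 0.1, and -0.71 to -0.58 with 1 library left out. The SFB minus NFF median of 2.17 was 3.44 and 2.75 with pseudocounts of 0.1 and 0.5, 2.42 with Tgtp1 and Tgtp2 summed, and 2.12 to 2.30 with 1 library left out. A smaller pseudocount widens differences of genes near 1 RPKM by construction.

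Counts of called genes moved more. In SFB against Control the count was 21, and 0 with the replicate block, 1 in a fit of only the 2 groups, 95 without the 3 farthest libraries, and 7 (without SFB 2) to 94 (without SFB 4) with 1 library left out. In NFF against Control it was 0, and 1 with only the 2 groups, 22 without the 3 farthest libraries, and up to 8 (without SFB 4). In SFB against NFF it was 769, and 1173 with quantile normalization, 335 with the replicate block, and 240 (without NFF 2) to 994 (without Control 2). The cause was not tested. Iigp1, Nlrc5 and Tap1 lost their calls in SFB against Control with the replicate block (adjusted p = 0.294, 0.379 and 0.229) and with only the 2 groups (0.085, 0.167 and 0.062). The labels do not state that a number marks a shared batch, and deviations of same-numbered libraries correlated at 0.20 and 0.67 between SFB and Control, at -0.17 and -0.28 between NFF and Control and at -0.30 to 0.03 between SFB and NFF. Of the uncalled values not given in the text, 52 of 974 changed sign.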
